A study of Mus musculus with 22 samples.

Results

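The 46 genes described here run the cell division cycle in mice: cyclins and cyclin-dependent kinases (CDKs), E2F factors, the replication machinery, and the proteins that carry chromosomes through mitosis. They were chosen by name from a list of cell cycle and DNA replication genes, and all 46 were found and tested in both deposited tables, among 16108 genes tested in set 1 and 15625 in set 2. Their RNA was measured in 22 liver tumours that grew in C57BL/6 mice after plasmids had been driven into liver cells through the tail vein (hydrodynamic injection). All tumours carried MYC, and none was treated. In set 1, the groups were MYC with β-catenin and lucOS (2 tumours), MYC with p53 loss and lucOS (3), MYC with β-catenin and luc (4) and MYC with p53 loss and luc (3). In set 2, they were MYC with β-catenin and lucOS (3), MYC with β-catenin and luc (3) and MYC with p53 loss and lucOS (4), the last labelled as sgp53. Here luc is luciferase, and lucOS is luciferase joined to model antigen peptides. Whether the tumours of a group came from separate animals is not stated in the labels, and p-values measure only the spread between these samples, which may be technical.

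Cells divide when cyclins activate CDKs, which release E2F factors from the retinoblastoma protein and so switch on the genes for DNA synthesis. Later in the cycle the B-MYB and FOXM1 factors switch on the genes for mitosis. In the healthy adult liver most hepatocytes rest outside the cycle, and p53 restrains the cycle mainly by inducing the CDK inhibitor gene Cdkn1a, while β-catenin with its TCF partners can induce cyclin D1. Values are given as deposited, that is as reads per gene divided by 1 scaling factor per tumour, and differences as β-catenin minus p53 tumours on the log2(value + 1) scale.

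Reads over all genes ran from 33.7 M to 54.9 M per tumour in set 1 and from 33.6 M to 50.1 M in set 2. Luc p53 tumour 1 of set 1 stood apart in Rn45s, a ribosomal RNA precursor, with 8.9% of its reads against 0.741% to 2.04% in the other tumours. Trp53 itself lay between 3296 and 4994 in the β-catenin tumours, against 1423 to 2280 in the p53 tumours of set 1, and between 2632 and 4405 against 1345 to 2223 in set 2. Hepatocyte markers such as Alb were present in every tumour. The tables were scaled separately, and all tests stayed within a set. In set 2 the names of lucOS p53 tumours 1 to 3 begin with AL and those of all other tumours with JAX, so this difference in name and the driver largely cannot be told apart there.

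The cell cycle genes were lower in β-catenin than in p53 tumours. Across the 3 comparisons that share no tumour (lucOS in set 1, luc in set 1, lucOS in set 2), 42 of the 46 genes had a negative difference in all of them, or 91.3%, against 40.5% of the 15378 genes tested in both sets. The exceptions were Ccnd1, Cdk2, E2f8 and Ccnb2, and E2f8 alone was positive in all 3. The median difference of the 46 genes was -1.14 for lucOS in set 1, -0.64 for luc in set 1 and -0.96 for lucOS in set 2, beside medians over all tested genes of -0.15, -0.20 and -0.16. With 1 tumour left out, the medians of the 46 genes ran from -1.50 to -0.64, from -0.74 to -0.41 and from -1.28 to -0.52. They were nearest 0 without lucOS β-catenin tumour 2 and luc β-catenin tumour 3 of set 1, and without lucOS β-catenin tumour 3 of set 2. With the tumours rescaled by edgeR's TMM factors the medians over all genes moved to within 0.02 of 0 and those of the cell cycle genes to -0.99, -0.45 and -0.80. These are bulk tumours, in which fewer dividing cells and less of these RNAs per cell cannot be told apart.

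Single genes passed the test less often than this shared direction. In limma fits across all genes with Benjamini-Hochberg adjustment, called at an adjusted p under 0.05, 6 of the 46 genes were lower in lucOS β-catenin than in lucOS p53 tumours of set 1, where 2.59% of all tested genes were called lower. They were Ccne2, Top2a, Cenpe, Kif20a, Bub1 and Bub1b. Among luc tumours, 3 were lower (Ccne2, Cdc25c and Top2a), beside 9.16% of all genes, so that share of the members is close to the background. In set 2, 18 were lower in lucOS β-catenin tumours, beside 10.9% of all genes. limma called no member higher in any of the 3, beside 1.62%, 5.93% and 6.08% of all genes, while Ccnd1 was called higher for luc by edgeR and DESeq2 and in set 2 by DESeq2. With the driver difference of set 1 averaged over luc and lucOS, which uses the same 12 tumours again, 29 were lower, beside 18.6% of all genes, and none higher, beside 9.73%. Over all genes that averaged difference gave 1568 higher and 2994 lower as deposited, and 2065 higher and 1709 lower with TMM factors, a scaling by trimmed means. Called lower in at least 1 of the 3 separate comparisons were 22 of the 46 genes, beside 16.8% of all genes, in at least 2 of them Ccne2, Top2a and Cenpe (4.8% of all genes), and in all 3 Ccne2 and Top2a (1.3%), of which Top2a was not called for luc with TMM factors, edgeR or DESeq2.

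The counts depended on scaling and on single tumours. With TMM factors they were 2 for lucOS in set 1, 1 for luc in set 1, 17 for the average and 11 for lucOS in set 2. With only the groups compared in the fit, they were 0 for lucOS in set 1, 4 for luc in set 1 and 14 for lucOS in set 2. For lucOS in set 1, where 2 tumours met 3, the count fell to 0 when β-catenin tumour 2 was left out, to 3 when β-catenin tumour 1 was, to 2 when p53 tumour 1 or 2 was, and to 1 when p53 tumour 3 was. For luc it fell to 0 when p53 tumour 2 was left out and to 1 when β-catenin tumour 2 or p53 tumour 1 or 3 was. It was 5 when β-catenin tumour 1 was left out, 2 when β-catenin tumour 4 was, and 2, 1 of them higher, when β-catenin tumour 3 was. The averaged count was 10 without lucOS β-catenin tumour 2. In set 2 the count was 29 when β-catenin tumour 1 was left out and 8 when β-catenin tumour 3 was. It was 6 when p53 tumour 1 or 3 was left out, 10 when p53 tumour 2 was and 11 when p53 tumour 4 was. In the tumours of set 2 named JAX, 3 against 1, the median was -0.82. With 1 p53 tumour in that fit, a count of calls cannot tell anything about these genes.

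**Figure D1:**
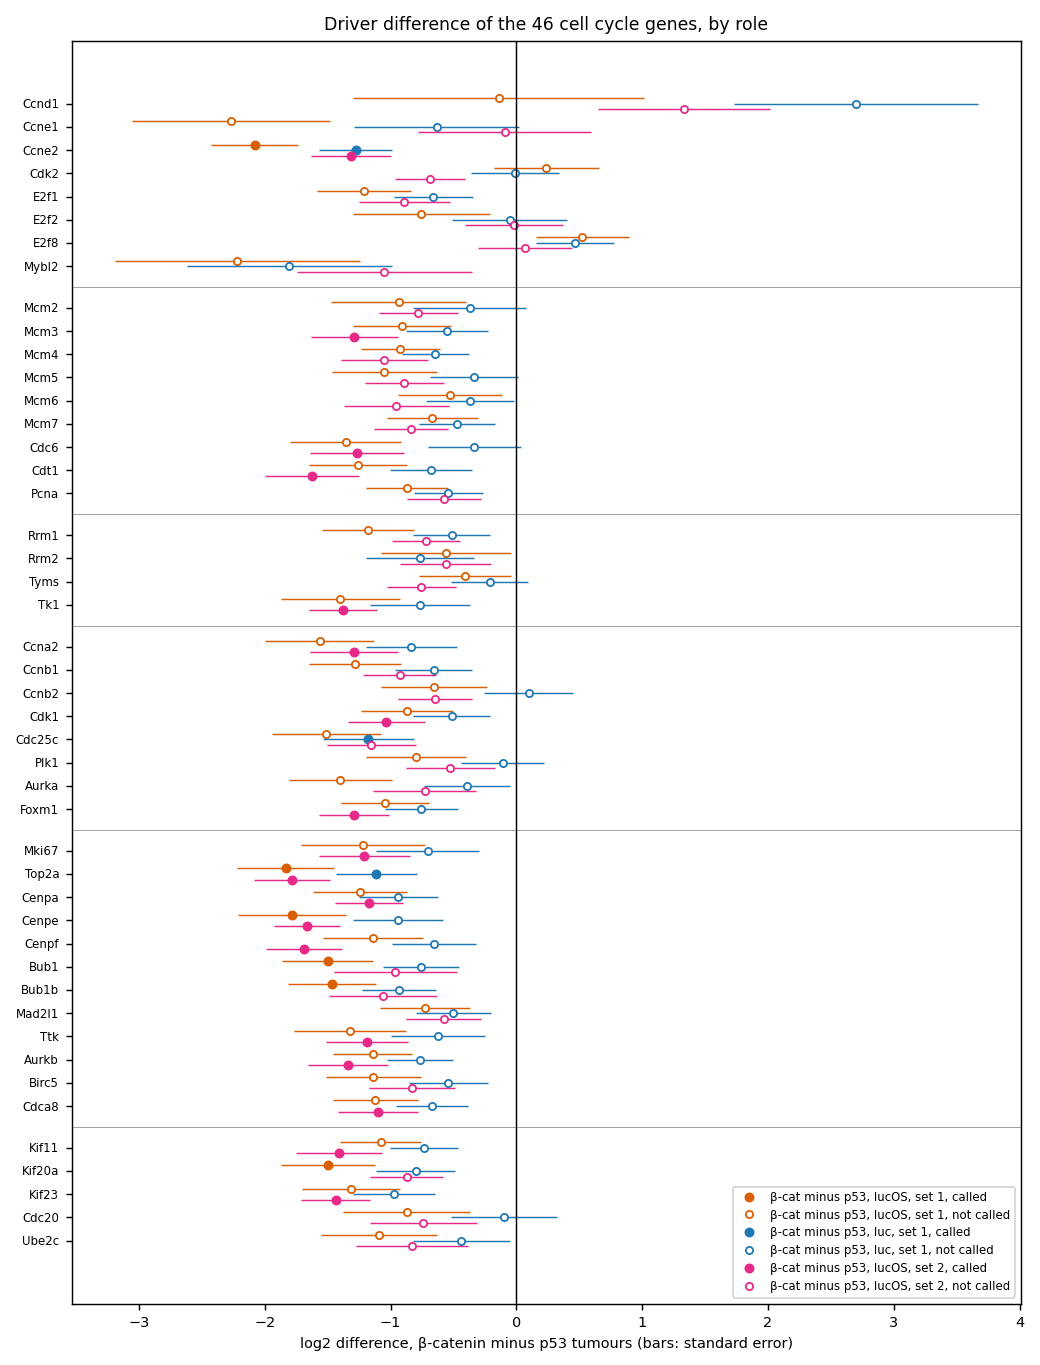
Log2 difference, β-catenin minus p53 tumours, of each of the 46 genes (rows, in blocks by role) with its standard error as a bar, for lucOS tumours of set 1 (orange), luc tumours of set 1 (blue) and lucOS tumours of set 2 (pink). Filled points were called at an adjusted p under 0.05 by limma. Most points lie left of 0, and Ccnd1 for luc tumours reaches 2.70, called by edgeR and DESeq2 but not by limma, which is plotted.

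Of the members called in at least 1 comparison, Top2a, Cenpe, Kif23 and Cdt1 were among those with the largest mean difference over the 3, and their promoters are shown because many cell cycle promoters carry shared elements. Ccne2, Cdc25c and Ccna2 also ranked high but have no entry in the table used, and Mybl2, which had the largest mean difference, was called in none of the 3 and is not shown. Each stretch runs from 250 bases before to 30 bases after the RefSeq start, on the strand of the gene (GRCm38.p6): Top2a at chr11:99024160-99024439 (minus strand), Cenpe at chr3:135212313-135212592 (plus), Kif23 at chr9:61946770-61947049 (minus) and Cdt1 at chr8:122567765-122568044 (plus). Capitals mark the CCAAT box and TTTGAA, the core of the cell cycle homology region found in late cell cycle promoters, on either strand (ATTGG and TTCAAA on the opposite one).
Top2a: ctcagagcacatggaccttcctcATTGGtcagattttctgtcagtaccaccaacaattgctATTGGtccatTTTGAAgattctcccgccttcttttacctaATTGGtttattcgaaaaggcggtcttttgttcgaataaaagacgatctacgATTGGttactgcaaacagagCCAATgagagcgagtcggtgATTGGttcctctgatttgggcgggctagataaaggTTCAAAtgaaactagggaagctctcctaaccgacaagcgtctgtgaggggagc
Cenpe: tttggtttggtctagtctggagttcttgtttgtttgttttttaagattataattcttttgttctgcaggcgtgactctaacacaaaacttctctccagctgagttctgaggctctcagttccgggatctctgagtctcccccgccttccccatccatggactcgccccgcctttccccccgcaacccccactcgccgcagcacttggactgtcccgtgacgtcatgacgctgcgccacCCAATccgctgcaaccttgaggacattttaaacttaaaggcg
Kif23: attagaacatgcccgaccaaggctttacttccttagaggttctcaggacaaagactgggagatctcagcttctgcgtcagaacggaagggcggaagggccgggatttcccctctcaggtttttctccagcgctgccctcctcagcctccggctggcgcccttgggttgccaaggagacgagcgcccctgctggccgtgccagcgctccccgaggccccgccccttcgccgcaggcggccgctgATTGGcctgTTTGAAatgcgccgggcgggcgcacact
Cdt1: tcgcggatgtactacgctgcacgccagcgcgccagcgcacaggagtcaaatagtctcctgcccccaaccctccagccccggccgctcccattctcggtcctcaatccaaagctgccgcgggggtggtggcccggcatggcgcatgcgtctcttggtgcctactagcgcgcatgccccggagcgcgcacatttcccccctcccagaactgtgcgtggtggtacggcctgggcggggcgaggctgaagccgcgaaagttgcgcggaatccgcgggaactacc
The Top2a stretch holds both elements, with 6 CCAAT boxes, Kif23 holds 1 of each close to its start, Cenpe has a CCAAT box and no TTTGAA, and Cdt1 has neither. The E2F form TTTGGCGC begins 33 bases after the start of Cdt1, past the stretch shown.

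RefSeq promoter windows of 300 bases were at hand for 38 of the 46 genes, 40 windows in all. CCAAT was present in 31 of them (77.5%), against 37.4% of all 32851 windows in the table, and TTTGAA in 18 (45%), against 17.9%. The same 18 windows held both, a combination found in 6.95% of all windows. Among them were those of Mki67, Top2a, Cdk1, Plk1, Aurka, Bub1b and Cenpf. At least 1 of the E2F forms TTTGGCGC, TTTCCCGC, TTTCGCGC and TTTGCCGC was in 9 windows (22.5%), against 2.26% of all windows, and these 9 belonged to Cdc6, Cdk1, Cdk2, Cdt1, E2f2, Mcm3, Mcm5, Mcm6 and Mcm7. In the 14827 windows of genes tested in set 1, the shares were 37.3% for CCAAT and 12.5% for TTTGAA. There, 4.96% held both and 3.49% an E2F form. Both strands were searched, and motifs were counted whether or not they overlapped. A match describes the letters only.

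The first genes in the order of the cycle are those of the passage from G1 into S phase: Ccnd1, Ccne1, Ccne2, Cdk2, E2f1, E2f2, E2f8 and Mybl2. This was the most mixed group. Ccne2, for cyclin E2, the activator of CDK2 at the start of S phase, was lower in all 3 comparisons. In set 1, Ccne2 had 677 and 419 in the lucOS β-catenin tumours, against 1649, 2709 and 2552 in the lucOS p53 tumours. Among luc tumours, Ccne2 had 604, 690.5, 432 and 809.6 with β-catenin, against 1218, 1979 and 1399.6 with p53 loss. In set 2, Ccne2 had 984, 528 and 430.4 in lucOS β-catenin and 623, 754 and 1025 in luc β-catenin tumours, against 2124, 1522, 1408 and 1147 in lucOS p53 tumours. Every β-catenin tumour lay below every p53 tumour of its set. The differences were -2.08 ± 0.35 (SE), -1.28 ± 0.29 (SE) and -1.31 ± 0.32 (SE) on the log2 scale (adjusted p = 0.0154, 0.0167 and 0.0231), a fall of 4.22, 2.42 and 2.49-fold. The call held in 4 of 5, 6 of 7 and 3 of 7 repeats with 1 tumour left out, and was lost for lucOS in set 1 without β-catenin tumour 2 (0.0989), for luc without p53 tumour 2 (0.0688), and in set 2 without β-catenin tumour 2 (0.0586) or 3 (0.0775) or p53 tumour 1 (0.061) or 3 (0.0549). For lucOS in set 1 the call was also lost with only the groups compared in the fit.

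Ccne1, for cyclin E1, was not called by limma. In set 1, Ccne1 had 487 and 298 in the lucOS β-catenin tumours, against 812, 2398 and 3192 in the lucOS p53 tumours. Among luc tumours, Ccne1 had 445, 2058, 273 and 833 with β-catenin, against 1517, 638 and 1193 with p53 loss. In set 2, Ccne1 had 2182, 908 and 284 in lucOS β-catenin and 735, 3096 and 903 in luc β-catenin tumours, against 1058, 1322, 571 and 753 in lucOS p53 tumours. The lucOS groups were apart in set 1 only, and within luc β-catenin tumours Ccne1 ranged from 273 to 2058. Differences were -2.27, -0.63 and -0.09 (adjusted p = 0.114, 0.533 and 0.94), and the small one in set 2 was positive with TMM factors. DESeq2 called it lower for lucOS in set 1 (adjusted p = 0.0325). Cyclin E2 and cyclin E1 were not tested against each other.

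Ccnd1, for cyclin D1, the partner of CDK4 and CDK6 that starts the phosphorylation of the retinoblastoma protein, was the only member with every luc β-catenin tumour above every luc p53 tumour. In set 1, Ccnd1 had 1001 and 1658 in the lucOS β-catenin tumours, against 703, 783 and 5192 in the lucOS p53 tumours. Among luc tumours, Ccnd1 had 19055, 1804, 1019.5 and 10124 with β-catenin, against 512, 666 and 869 with p53 loss. In set 2, Ccnd1 had 732, 6149.5 and 1427 in lucOS β-catenin and 2519, 2864 and 10036 in luc β-catenin tumours, against 808, 719, 934 and 547 in lucOS p53 tumours. The spread within groups was wide. High values were in luc β-catenin tumours 1 and 4 of set 1, and in luc β-catenin tumour 3 and lucOS β-catenin tumour 2 of set 2. Of the lucOS p53 tumours, only tumour 3 of set 1 was high. Among luc tumours the groups did not overlap, which held for 10.9% of all genes in this direction. The differences were -0.14 ± 1.16 (SE), 2.70 ± 0.97 (SE) and 1.33 ± 0.68 (SE) on the log2 scale (adjusted p = 0.957, 0.0797 and 0.195), so limma called none, and the first was positive with TMM factors. edgeR and DESeq2 called the luc difference higher (adjusted p = 0.0492 and 0.000381), and DESeq2 that of set 2 (0.0153).

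E2f1, the E2F factor that opens the S phase program, was lower on average in every comparison. In set 1, E2f1 had 629 and 326 in the lucOS β-catenin tumours, against 854, 1394 and 970.0 in the lucOS p53 tumours. Among luc tumours, E2f1 had 731, 720.3, 438 and 688 with β-catenin, against 1332, 731 and 1017 with p53 loss. In set 2, E2f1 had 726, 579 and 262 in lucOS β-catenin and 334, 569 and 759 in luc β-catenin tumours, against 859.7, 972, 916 and 819.8 in lucOS p53 tumours. The lucOS groups did not overlap in either set. Its differences were -1.21, -0.66 and -0.89 (adjusted p = 0.0859, 0.17 and 0.114), and it was called only in the average over set 1 (-0.93, adjusted p = 0.0164). E2f8, an atypical E2F that represses E2F targets, had positive differences that limma did not call. In set 1, E2f8 had 3452 and 2443 in the lucOS β-catenin tumours, against 1889, 2792 and 1561 in the lucOS p53 tumours. Among luc tumours, E2f8 had 1325, 2791, 2377 and 3182 with β-catenin, against 1806, 1342 and 1900 with p53 loss. In set 2, E2f8 had 4255, 1161 and 2259.5 in lucOS β-catenin and 3804, 3777 and 2304 in luc β-catenin tumours, against 2085, 2577, 1889 and 2014 in lucOS p53 tumours. The groups overlapped in all 3 comparisons, with differences of 0.52, 0.47 and 0.07 (adjusted p = 0.422, 0.319 and 0.911). DESeq2 called it higher in the average over set 1.

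Mybl2, for B-MYB, had some of the largest differences and a wide spread. Its values were 6185, 532, 425 and 669 in luc β-catenin tumours, against 2140, 7586 and 2508 in luc p53 tumours. Of these luc β-catenin tumours of set 1, tumour 1 alone lay among the p53 tumours, and the lucOS groups of set 1 did not overlap. In set 2, Mybl2 had 477, 3404 and 422 in lucOS β-catenin tumours, against 1718, 2182, 1574 and 1883 in lucOS p53 tumours. LucOS β-catenin tumour 2 there lay above every p53 tumour. Differences were -2.22, -1.80 and -1.05 (adjusted p = 0.195, 0.15 and 0.313), and the call came only with the average over set 1 (-2.01, adjusted p = 0.0362). Cdk2, the partner of cyclins E and A, and E2f2 were not called, with differences from -0.68 to 0.24 and from -0.76 to -0.02.

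**Figure D2:**
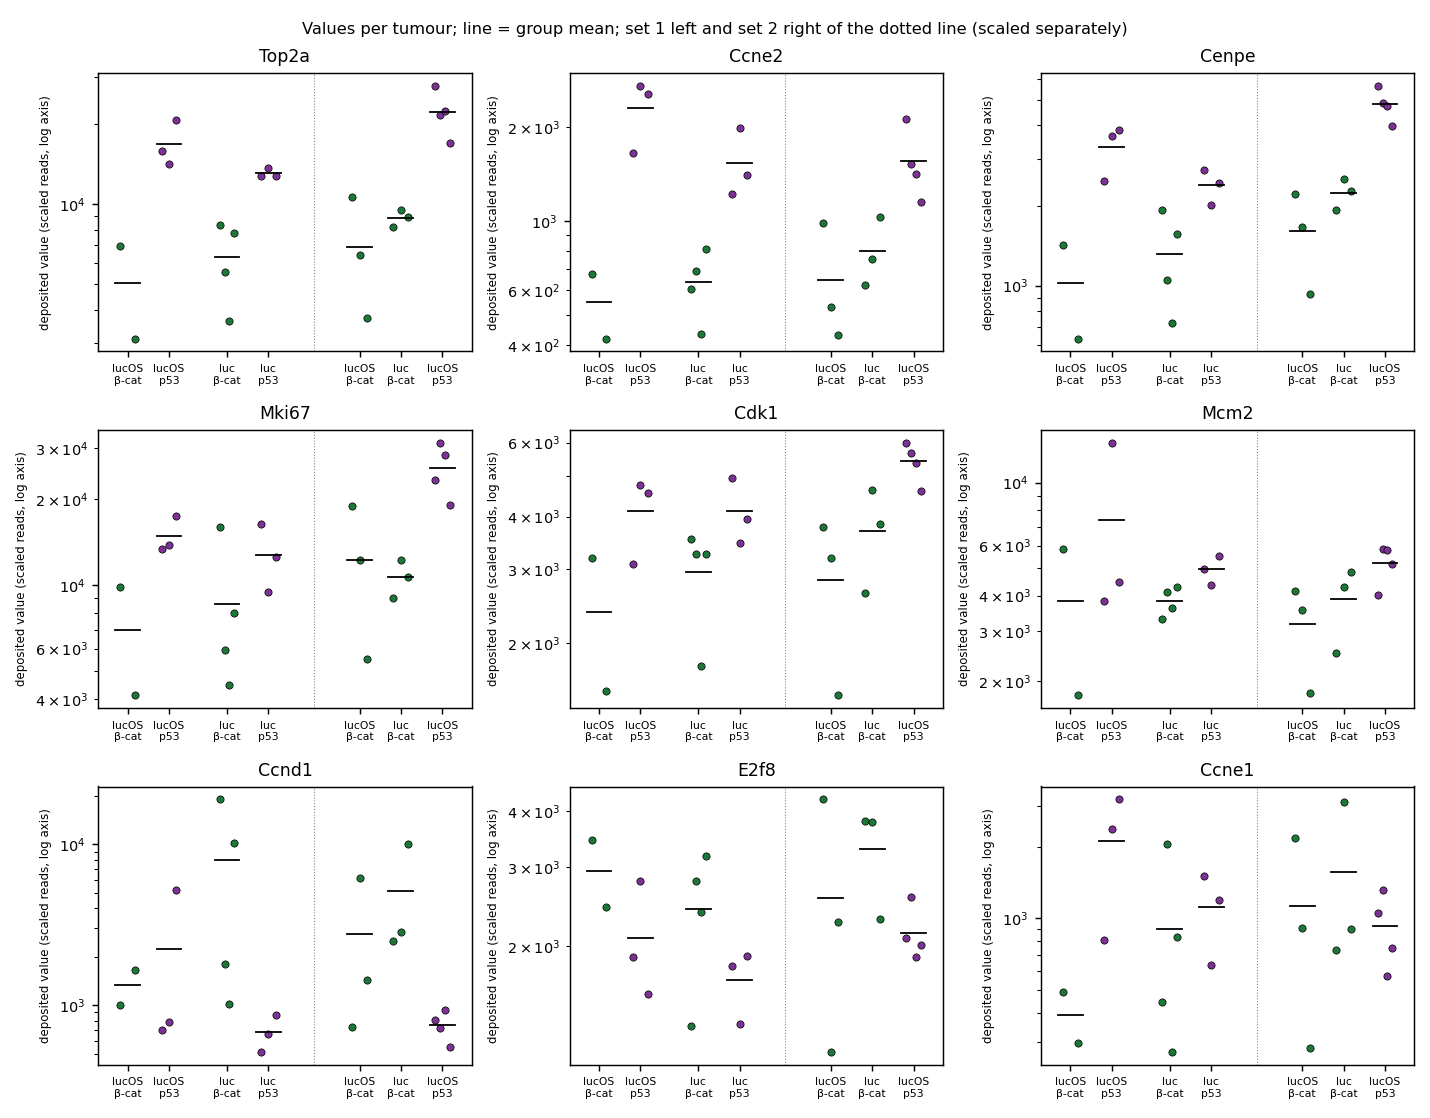
Deposited values (log axis) of 9 cell cycle genes in every tumour, with β-catenin tumours in green, p53 tumours in purple and the group mean as a line; set 1 stands left and set 2 right of the dotted line. For Top2a, Ccne2 and Cenpe the β-catenin tumours lie below the p53 tumours of their set, while for Ccnd1, E2f8 and Ccne1 the groups mix or turn round.

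The replication genes comprise those that license origins (Cdc6, Cdt1 and Mcm2 to Mcm7, which form the helicase ring) and Pcna, the sliding clamp of the replication fork. All 9 had negative differences in all 3 comparisons. None was called within lucOS or luc in set 1, and Cdt1, Cdc6 and Mcm3 were called in set 2. With 1 tumour left out Cdc6 held in 1 and Mcm3 in 2 of 7 repeats (adjusted p up to 0.135 and 0.0952), and both were lost with TMM factors and edgeR. Cdc6 was also lost with median centring and DESeq2. The median of the 9 was -0.92, -0.47 and -0.95.

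Cdt1 loads the MCM helicase onto origins together with Cdc6. In set 1, Cdt1 had 2276 and 1075 in the lucOS β-catenin tumours, against 3045, 4191 and 4086 in the lucOS p53 tumours. Among luc tumours, Cdt1 had 2530.4, 2286, 1239 and 3152 with β-catenin, against 3941, 3011 and 3603 with p53 loss. In set 2, Cdt1 had 1771, 1763 and 689 in lucOS β-catenin and 1081, 2181 and 2549 in luc β-catenin tumours, against 4033, 4573, 3918 and 3461 in lucOS p53 tumours. The lucOS groups were apart in both sets, and in set 2 the luc β-catenin tumours also lay below all p53 tumours. Among luc tumours, the highest with β-catenin exceeded the lowest with p53 loss. The difference in set 2 was -1.62 ± 0.37 (SE) (adjusted p = 0.0202), a 3.08-fold fall, and the call held in 4 of 7 repeats with 1 tumour left out and was lost without p53 tumour 1 (0.0508) or 3 (0.052) or β-catenin tumour 3 (0.0505).

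Mcm2 had its highest value in lucOS p53 tumour 2. In set 1, Mcm2 had 5861 and 1785 in the lucOS β-catenin tumours, against 3837, 13836 and 4459.8 in the lucOS p53 tumours. Among luc tumours, Mcm2 had 3311, 4117, 3626 and 4286 with β-catenin, against 4969, 4367 and 5521 with p53 loss. In set 2, Mcm2 had 4164, 3564 and 1824 in lucOS β-catenin and 2507, 4306 and 4836 in luc β-catenin tumours, against 4008, 5850.2, 5786 and 5189.9 in lucOS p53 tumours. Only the luc groups were apart, and the differences of -0.94, -0.37 and -0.78 were not called (adjusted p = 0.318, 0.597 and 0.109). Pcna showed the same high tumour. In set 1, Pcna had 6498 and 3933 in the lucOS β-catenin tumours, against 6349, 14315 and 8641 in the lucOS p53 tumours. Among luc tumours, Pcna had 6004, 6445, 4581 and 6744 with β-catenin, against 9402, 7734 and 8582 with p53 loss. In set 2, Pcna had 8851, 5023 and 3648 in lucOS β-catenin and 4173, 6795 and 7785 in luc β-catenin tumours, against 8743, 8136, 7836 and 7789.6 in lucOS p53 tumours. Its luc groups were apart and its lucOS groups overlapped in both sets, with differences of -0.87, -0.54 and -0.57 (adjusted p = 0.137, 0.194 and 0.194).

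Nucleotide supply rests on Rrm1 and Rrm2, the subunits of ribonucleotide reductase, Tyms, which makes thymidylate, and Tk1, which salvages thymidine. Rrm2 differed little beside its spread. In set 1, Rrm2 had 4125 and 2051 in the lucOS β-catenin tumours, against 3105, 7699 and 3298 in the lucOS p53 tumours. Among luc tumours, Rrm2 had 6046, 4264, 1970.2 and 3956 with β-catenin, against 5619, 9181 and 5074 with p53 loss. In set 2, Rrm2 had 4221, 4501 and 1747 in lucOS β-catenin and 2646, 4601 and 5544 in luc β-catenin tumours, against 3745, 4513, 6174 and 4868 in lucOS p53 tumours. All 3 comparisons overlapped, and the differences were -0.56, -0.76 and -0.56 (adjusted p = 0.553, 0.243 and 0.296). Tk1 was the only gene of the 4 called within a comparison. In set 1, Tk1 had 1601 and 1617 in the lucOS β-catenin tumours, against 3583, 5697 and 3744 in the lucOS p53 tumours. Among luc tumours, Tk1 had 2766, 1969.8, 1082 and 2111 with β-catenin, against 4789, 1593 and 4276 with p53 loss. In set 2, Tk1 had 1522, 1797 and 912 in lucOS β-catenin and 1166, 1717 and 2083 in luc β-catenin tumours, against 4055, 2790.3, 3792 and 3597 in lucOS p53 tumours. The lucOS groups were apart in both sets, and luc p53 tumour 2 lay among the luc β-catenin tumours. In set 2 the difference was -1.38 ± 0.27 (SE) (adjusted p = 0.0119), a 2.6-fold fall, and it remained called whichever tumour was left out (adjusted p up to 0.0383).

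Mitotic entry depends on CDK1 with cyclins A and B, on the phosphatase CDC25C that activates it, and on the transcription factor FOXM1. Of the 3 separate comparisons, Cdk1 was called in set 2. In set 1, Cdk1 had 3191 and 1544 in the lucOS β-catenin tumours, against 3088, 4758 and 4556 in the lucOS p53 tumours. Among luc tumours, Cdk1 had 3542, 3263, 1769.7 and 3263 with β-catenin, against 4948, 3464 and 3951 with p53 loss. In set 2, Cdk1 had 3778, 3198 and 1504 in lucOS β-catenin and 2626, 4629 and 3852 in luc β-catenin tumours, against 6002, 5662, 5369.6 and 4609 in lucOS p53 tumours. The set 2 lucOS groups were apart, whereas those of set 1 overlapped through p53 tumour 1, which lay below β-catenin tumour 1. The differences were -0.87, -0.51 and -1.03 (adjusted p = 0.177, 0.269 and 0.045). The call in set 2 held in 1 of 7 repeats with 1 tumour left out (adjusted p up to 0.107). That call of Cdk1 was lost with TMM factors, median centring, edgeR and DESeq2. In the average over set 1 Cdk1 was also called, at the threshold (-0.69, adjusted p = 0.0499).

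Foxm1 was lower in set 2 beyond the spread. In set 1, Foxm1 had 1845 and 909 in the lucOS β-catenin tumours, against 2581, 2838 and 2616 in the lucOS p53 tumours. Among luc tumours, Foxm1 had 2092, 1494, 993 and 1813 with β-catenin, against 3066, 2057 and 2779 with p53 loss. In set 2, Foxm1 had 1570.4, 1097 and 674 in lucOS β-catenin and 1169, 1678 and 1589 in luc β-catenin tumours, against 3028, 2686, 2701 and 1991 in lucOS p53 tumours. Every lucOS β-catenin tumour lay below every lucOS p53 tumour in both sets, and luc β-catenin tumour 1 just above the lowest luc p53 tumour. The difference in set 2 was -1.29 ± 0.28 (SE) (adjusted p = 0.016), called with each tumour left out in turn, and those of set 1 were -1.05 for lucOS and -0.75 for luc, neither called.

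Cdc25c was the third gene called among luc tumours. In set 1, Cdc25c had 283 and 178 in the lucOS β-catenin tumours, against 574, 656 and 703 in the lucOS p53 tumours. Among luc tumours, Cdc25c had 407, 298, 138 and 388 with β-catenin, against 769, 578 and 600.3 with p53 loss. In set 2, Cdc25c had 503, 391 and 179 in lucOS β-catenin and 303, 500.3 and 561 in luc β-catenin tumours, against 804, 783, 758 and 596 in lucOS p53 tumours. The groups were apart in all 3 comparisons. The luc difference was -1.18 ± 0.36 (SE) (adjusted p = 0.0497), close to the threshold and called in 1 of 7 repeats with 1 tumour left out. The lucOS differences of -1.51 and -1.15 missed it (adjusted p = 0.0702 and 0.0505). The luc call was lost with TMM factors, median centring, edgeR and DESeq2, while DESeq2 called the lucOS difference of set 1.

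Ccna2, for cyclin A2, was called in set 2. In set 1, Ccna2 had 3868 and 2429 in the lucOS β-catenin tumours, against 6518, 15978 and 7146 in the lucOS p53 tumours. Among luc tumours, Ccna2 had 5251, 4639, 2259 and 4911 with β-catenin, against 8120.1, 6163 and 7564 with p53 loss. In set 2, Ccna2 had 5409, 5368 and 1908 in lucOS β-catenin and 3359.8, 5556 and 5846 in luc β-catenin tumours, against 9587, 10334, 9102 and 8385 in lucOS p53 tumours. All 3 comparisons were free of overlap, with differences of -1.56, -0.83 and -1.29 (adjusted p = 0.0638, 0.134 and 0.0345). The call held in 2 of 7 repeats with 1 tumour left out (adjusted p up to 0.0781) and was lost with TMM factors and edgeR. Ccnb1 and Ccnb2, for B cyclins, Plk1 and Aurka, kinases of mitotic entry, were not called within any of the 3 by limma. In the average over set 1 limma called Ccnb1 and Aurka lower (adjusted p = 0.0129 and 0.0285). DESeq2 called Ccna2, Ccnb1 and Aurka lower for lucOS in set 1. The luc difference of Ccnb2 was 0.10, and those of Aurka were -1.40, -0.39 and -0.73.

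The chromosome, kinetochore and checkpoint genes, the largest role group with 12 genes, held 4 of the 6 calls for lucOS in set 1, 1 of 3 for luc, 8 of 18 for lucOS in set 2, and 11 of 29 in the average over set 1, where only Mad2l1 was not called. Their medians were -1.23, -0.73 and -1.18. Top2a, for topoisomerase IIα, which untangles chromosomes before they part, was lower in all 3 comparisons. In set 1, Top2a had 6943 and 3125 in the lucOS β-catenin tumours, against 15791, 14103 and 20599 in the lucOS p53 tumours. Among luc tumours, Top2a had 8369.6, 5542, 3629.7 and 7797 with β-catenin, against 12692, 13642 and 12728 with p53 loss. In set 2, Top2a had 10598, 6426 and 3738 in lucOS β-catenin and 8195, 9475 and 8945 in luc β-catenin tumours, against 27709, 21467, 22293 and 16981 in lucOS p53 tumours. Every β-catenin tumour lay below every p53 tumour of its set, the luc ones included. The differences were -1.83 ± 0.38 (SE), -1.11 ± 0.32 (SE) and -1.78 ± 0.30 (SE) on the log2 scale (adjusted p = 0.0307, 0.04 and 0.00757), or 3.57, 2.16 and 3.44-fold lower. The call held in 2 of 5, 2 of 7 and 7 of 7 repeats with 1 tumour left out, and was lost for lucOS in set 1 without β-catenin tumour 2 (0.186) or p53 tumour 1 (0.0652) or 3 (0.0773). For luc it was lost without any of the 3 p53 tumours or β-catenin tumour 2 or 3 (0.0801 to 0.106), and with TMM factors, median centring, edgeR and DESeq2. edgeR also lost it for lucOS in set 1 (0.0649), and so did a fit of only the groups compared.

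Cenpe, a kinesin that brings chromosomes to the spindle equator, was lower in the lucOS comparisons of both sets. In set 1, Cenpe had 1419.8 and 632 in the lucOS β-catenin tumours, against 2474, 3652 and 3844 in the lucOS p53 tumours. Among luc tumours, Cenpe had 1926, 1052, 723 and 1567 with β-catenin, against 2721, 2005 and 2433 with p53 loss. In set 2, Cenpe had 2213, 1659 and 928 in lucOS β-catenin and 1922, 2512 and 2262 in luc β-catenin tumours, against 5637, 4861, 4737 and 3988 in lucOS p53 tumours. No β-catenin tumour overlapped a p53 tumour within any comparison. The differences were -1.78 ± 0.43 (SE), -0.94 ± 0.36 (SE) and -1.66 ± 0.26 (SE) on the log2 scale (adjusted p = 0.0455, 0.0947 and 0.00599). In set 2 the call held whichever tumour was left out, and in set 1 it was lost with any of the 5 left out (adjusted p from 0.0538 to 0.256). The set 1 call was also lost with TMM factors, median centring, edgeR and only the groups compared in the fit, and kept with DESeq2.

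Cenpf, a kinetochore protein that peaks in G2 and M phase, was called in set 2. In set 1, Cenpf had 1698 and 1038 in the lucOS β-catenin tumours, against 2627, 2691 and 3541 in the lucOS p53 tumours. Among luc tumours, Cenpf had 2728, 1613, 826 and 1726 with β-catenin, against 2609.8, 2391 and 2466 with p53 loss. In set 2, Cenpf had 2287, 1932 and 965 in lucOS β-catenin and 1795, 3248 and 1943 in luc β-catenin tumours, against 5799, 4976, 5652 and 4565 in lucOS p53 tumours. The lucOS groups were apart in both sets, and luc β-catenin tumour 1 was above all luc p53 tumours. The difference in set 2 was -1.69 ± 0.30 (SE) (adjusted p = 0.00876), and it was called with each tumour left out in turn.

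Mki67, for the antigen Ki-67, the usual mark of dividing cells, had a smaller difference than Top2a. In set 1, Mki67 had 9829 and 4126 in the lucOS β-catenin tumours, against 13406, 13846 and 17417 in the lucOS p53 tumours. Among luc tumours, Mki67 had 16018, 5932, 4496 and 8006 with β-catenin, against 16337, 9464 and 12558 with p53 loss. In set 2, Mki67 had 18959, 12215 and 5539 in lucOS β-catenin and 9035, 12269 and 10711 in luc β-catenin tumours, against 23238, 31479, 28525 and 19027 in lucOS p53 tumours. In set 2 the highest lucOS β-catenin tumour and the lowest lucOS p53 tumour almost met, and the luc groups overlapped through β-catenin tumour 1. The differences were -1.22 ± 0.49 (SE), -0.71 ± 0.41 (SE) and -1.21 ± 0.36 (SE) on the log2 scale (adjusted p = 0.163, 0.258 and 0.0465). Its set 2 call held in 1 of 7 repeats with 1 tumour left out and was lost with TMM factors, median centring, edgeR and DESeq2.

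Bub1 and Bub1b, for the spindle checkpoint kinase BUB1 and its relative BUBR1, were called for lucOS in set 1 and in the average over set 1, and not for luc or in set 2. In set 1, Bub1 had 1216 and 797 in the lucOS β-catenin tumours, against 1924, 3515 and 3195 in the lucOS p53 tumours. Among luc tumours, Bub1 had 1390.4, 1052, 633 and 1352 with β-catenin, against 1969, 1672 and 1746 with p53 loss. In set 2, Bub1 had 2941, 1586 and 522 in lucOS β-catenin and 1014, 1867 and 2011 in luc β-catenin tumours, against 2816, 3059, 2232 and 2458 in lucOS p53 tumours. In set 1 the groups were apart, and in set 2 lucOS β-catenin tumour 1 reached the level of the p53 tumours. The differences of Bub1 were -1.50, -0.76 and -0.96 (adjusted p = 0.0468, 0.109 and 0.194). In set 1, Bub1b had 2039 and 1113 in the lucOS β-catenin tumours, against 3157, 4418 and 5185 in the lucOS p53 tumours. Among luc tumours, Bub1b had 1836, 2116, 1123 and 2279 with β-catenin, against 3097, 3099 and 4053 with p53 loss. In set 2, Bub1b had 4515, 2304 and 989.9 in lucOS β-catenin and 1898, 3459.6 and 2583 in luc β-catenin tumours, against 5630, 4689, 4083 and 3922 in lucOS p53 tumours. Its pattern over tumours matched that of Bub1, with differences of -1.47, -0.93 and -1.06 (adjusted p = 0.0441, 0.0522 and 0.111). For lucOS in set 1 both calls were lost with TMM factors, median centring, edgeR and only the groups compared in the fit. They held in 1 (Bub1) and 0 (Bub1b) of 5 repeats with 1 tumour left out (adjusted p up to 0.234 and 0.244).

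Aurkb, the kinase of the chromosomal passenger complex, was called in set 2. In set 1, Aurkb had 1723 and 1079 in the lucOS β-catenin tumours, against 3213, 2654 and 3189 in the lucOS p53 tumours. Among luc tumours, Aurkb had 1971, 2207, 1063 and 1961 with β-catenin, against 2986, 2535 and 3403 with p53 loss. In set 2, Aurkb had 2227, 1712 and 767 in lucOS β-catenin and 1602, 2467 and 2084 in luc β-catenin tumours, against 4086, 3680, 3617 and 3136 in lucOS p53 tumours. The groups were apart in all 3 comparisons, with differences of -1.14, -0.77 and -1.34 (adjusted p = 0.0627, 0.0685 and 0.0227). DESeq2 also called Aurkb lower for lucOS in set 1. Its partners Birc5, for survivin, and Cdca8, for borealin, differed by -0.83 and -1.10 in set 2, of which Cdca8 was called (adjusted p = 0.0412). Cenpa, the histone variant of centromeres, and Ttk, the checkpoint kinase MPS1, were also called there, at -1.17 and -1.18 (adjusted p = 0.0201 and 0.0355). With 1 tumour left out, the calls of Aurkb and Cenpa held in 5 of 7 repeats, that of Ttk in 2 and that of Cdca8 in 1 (adjusted p up to 0.0609, 0.0573, 0.0862 and 0.0987). Those of Ttk and Cdca8 were lost with TMM factors, median centring and edgeR.

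Of the spindle and mitotic exit genes, Kif23 and Kif11 were called in set 2 and Kif20a for lucOS in set 1. Kif23, a motor of the central spindle that is needed for cytokinesis, ran as follows. In set 1, Kif23 had 572 and 436 in the lucOS β-catenin tumours, against 803, 1233 and 1938 in the lucOS p53 tumours. Among luc tumours, Kif23 had 820.4, 648, 371 and 639.6 with β-catenin, against 1241, 1038 and 1238 with p53 loss. In set 2, Kif23 had 974, 751 and 483 in lucOS β-catenin and 916, 1007 and 829.3 in luc β-catenin tumours, against 2443, 2196, 1939 and 1290.3 in lucOS p53 tumours. The groups were apart in all 3 comparisons. The differences were -1.31, -0.97 and -1.44 (adjusted p = 0.0762, 0.0647 and 0.0109), and the call in set 2 held with each tumour left out in turn. DESeq2 also called Kif23 lower for lucOS in set 1.

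Kif11 is the motor that pushes the spindle poles apart. In set 1, Kif11 had 3595 and 2006 in the lucOS β-catenin tumours, against 5056, 6935 and 5198 in the lucOS p53 tumours. Among luc tumours, Kif11 had 3184, 3043, 1902 and 4091 with β-catenin, against 4626, 4563 and 5612 with p53 loss. In set 2, Kif11 had 5544, 3057 and 1700 in lucOS β-catenin and 3740.3, 4872 and 4874 in luc β-catenin tumours, against 10567, 8387, 7856 and 6319.9 in lucOS p53 tumours. Again no comparison overlapped, with differences of -1.08, -0.74 and -1.41 (adjusted p = 0.0793, 0.086 and 0.024). Its set 2 call held in 2 of 7 repeats with 1 tumour left out (adjusted p up to 0.0645) and was lost with edgeR. Kif20a, a cytokinesis motor, was called for lucOS in set 1. In set 1, Kif20a had 2268 and 1531 in the lucOS β-catenin tumours, against 5379.9, 4848 and 5612 in the lucOS p53 tumours. Among luc tumours, Kif20a had 3321, 3812, 1355 and 3298 with β-catenin, against 4633, 4407 and 5347 with p53 loss. In set 2, Kif20a had 4898, 2865 and 2054 in lucOS β-catenin and 3464, 6317 and 3776 in luc β-catenin tumours, against 6148, 5112, 5803 and 5420.4 in lucOS p53 tumours. The lucOS and luc groups were apart in each comparison, and in set 2 luc β-catenin tumour 2 had the highest value of the set. The differences were -1.50, -0.80 and -0.87 (adjusted p = 0.0488, 0.101 and 0.0652). The call was lost with any of the 5 tumours left out (adjusted p from 0.0572 to 0.241). It was also lost with TMM factors, median centring, edgeR and only the groups compared in the fit. Cdc20 and Ube2c, which act with the anaphase-promoting complex, were not called.

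Over all 46 genes, every lucOS β-catenin tumour lay below every lucOS p53 tumour for 30 genes in set 1, as for 24.3% of all tested genes. For luc tumours this was so for 17 genes, beside 23.2% of all genes, and for lucOS in set 2 for 25 genes, beside 22.5%. Over luc and lucOS alike, all 6 β-catenin tumours lay below all 6 p53 tumours of set 1 for 12 genes (8.96% of all genes), and all 6 lay below all 4 p53 tumours of set 2 for 20 genes (15.9%). Ccne2, Top2a, Cenpe, Cdc25c, Ccna2, Aurkb, Cdca8 and Kif11 were in both of these lists.

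In set 2 the lucOS p53 tumour named JAX was the lowest of the 4 p53 tumours for 34 of the 46 genes. All 3 lucOS β-catenin tumours lay below it for 29 genes, and their mean did for 42. The shares over all genes were not counted, so these counts describe the values of the 46 genes only. The part of the name prefix in the set 2 differences cannot be told apart from the driver beyond these values.

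The level of these genes varied between tumours of 1 genotype as well. Taken as the mean deviation of the 46 genes from their set mean on the log2 scale, lucOS β-catenin tumours of set 1 lay at -0.20 and -1.03, against 0.14, 0.73 and 0.59 for lucOS p53 tumours. Luc β-catenin tumours lay at 0.01, -0.08, -0.97 and 0.00, against 0.36, 0.07 and 0.38 for luc p53 tumours. In set 2, lucOS β-catenin tumours lay at 0.08, -0.26 and -1.28 and luc β-catenin tumours at -0.55, 0.15 and 0.10, against 0.53, 0.52, 0.47 and 0.25 for lucOS p53 tumours. In each set the lowest tumours had β-catenin, while several β-catenin tumours lay within 0.1 of the set mean.

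LucOS β-catenin tumour 3 of set 2 had the lowest value of all 10 tumours for 42 of the 46 genes, all but Ccnd1, Cdk2, E2f8 and Mybl2. In set 1, lucOS β-catenin tumour 2 was lowest for 24 genes and luc β-catenin tumour 3 for 20. LucOS p53 tumour 2 was highest for 24 genes in set 1 and lucOS p53 tumour 3 for 11. The shares over all genes were not counted. Because the genes mostly moved together within a tumour, these counts describe single tumours and are not separate results per gene. The median SD of the 46 genes within a group was 0.75 for lucOS β-catenin tumours against 0.20 for lucOS p53 tumours in set 2, where the medians over all genes were 0.40 and 0.28. The difference in spread was not tested.

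**Figure D3:**
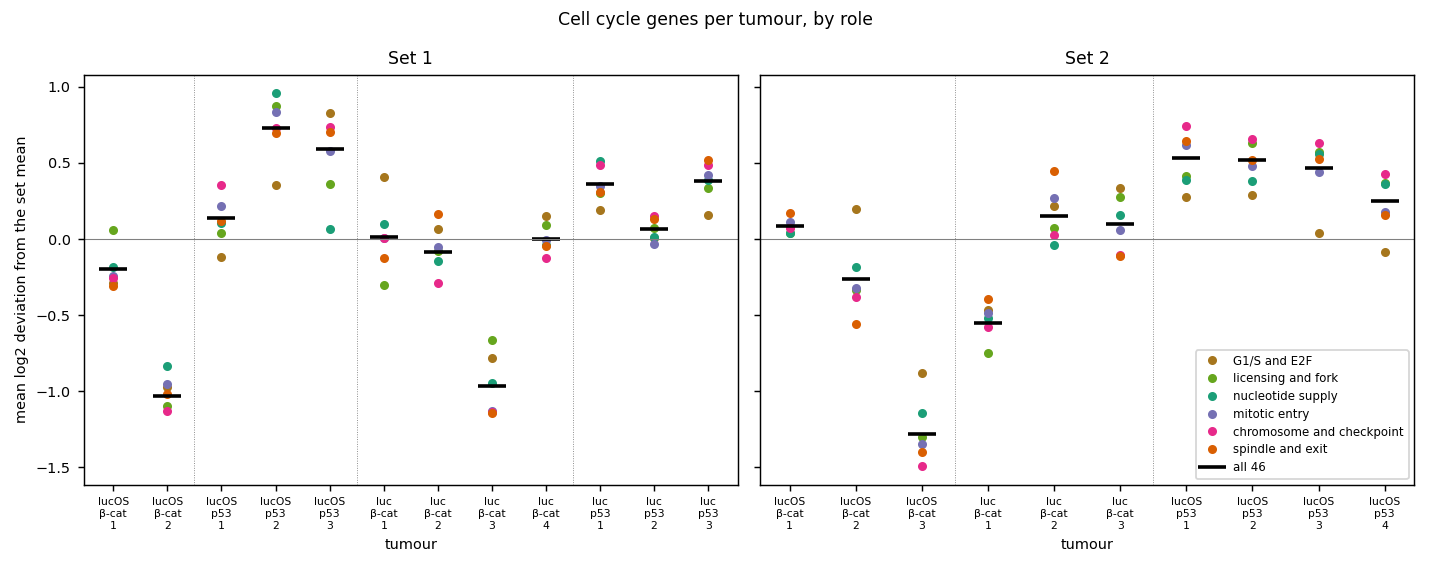
Mean log2 deviation from the set mean in each tumour, for the 6 role groups (coloured points) and for all 46 genes (black bars), set 1 on the left and set 2 on the right. The role groups mostly move together within a tumour, and lucOS β-catenin tumour 2 and luc β-catenin tumour 3 of set 1 and lucOS β-catenin tumour 3 of set 2 lie near -1 or below.

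Markers of T and NK cells had negative differences too, though the summed T cell markers of the drivers overlapped in set 1. The summed T cell markers ranged from 144 to 176 in lucOS β-catenin tumours, against 169 to 762 in lucOS p53 tumours of set 1, from 74.8 to 189 in luc β-catenin tumours, against 167 to 490.4 in luc p53 tumours, and from 129 to 142 in lucOS β-catenin tumours, against 392 to 928 in lucOS p53 tumours of set 2. Of 9 T cell markers tested, 1, 0 and 8 were called lower in these comparisons, and of the cytotoxic and NK cell markers 0 of 7, 3 of 7 and 7 of 8. Hepatocyte markers were called higher for 0, 2 (Alb and Tat) and 1 (Tat) of 10, and none was called lower. In set 1 the summed hepatocyte markers did not overlap between drivers. For lucOS they ran from 1.32e+06 to 1.54e+06 with β-catenin, against 9.15e+05 to 9.94e+05 with p53 loss. For luc they ran from 1.35e+06 to 1.82e+06, against 6.78e+05 to 1.03e+06. In set 2 the lucOS sums overlapped, from 3.94e+05 to 1.27e+06 against 4.49e+05 to 7.29e+05. The bile duct marker Sox9 was called lower in both comparisons of set 1, and none of the 5 bile duct markers was called in set 2. Macrophage and Kupffer cell markers were mixed for lucOS in set 1 (5 of 9 positive, none called), all 9 positive for luc (Marco called higher), and in set 2 Clec4f and Vsig4 were called higher and Emr1 and Csf1r lower. Of endothelial and of stellate cell and fibroblast markers none was called in set 1, and in set 2 Cdh5 and Pecam1 were lower and Dcn higher. Of the B cell, neutrophil and red blood cell precursor markers only Cxcr2, in set 2, was called, lower. No gene of these lists was at 0 in all tumours of a group. The part of other cells in the cell cycle differences was not tested.

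A second question is whether the antigen changes these genes. No member was called between lucOS and luc tumours, within either driver and set, or in the driver by antigen interaction of set 1 (0.0% of all genes were called in each), and none had an unadjusted p under 0.05 in limma with all tumours in. Over all genes, 722 had an unadjusted p under 0.05 within p53 tumours, 222 and 288 within β-catenin tumours of set 1 and set 2, and 436 for the interaction. edgeR called no gene in any of these and DESeq2 called 9, 18, 10 and 17 genes, none of them a member. The medians of the 46 genes were 0.20 within p53 tumours (37 positive), -0.32 and -0.42 within β-catenin tumours of set 1 and set 2 (44 and 42 negative), and -0.56 for the interaction (43 negative).

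These medians rested on single tumours. Without lucOS β-catenin tumour 2 of set 1 the β-catenin median was 0.12 and that of the interaction -0.09, and without lucOS β-catenin tumour 3 of set 2 the set 2 median was -0.01. In the other direction, without lucOS β-catenin tumour 1 the β-catenin median of set 1 was -0.76, that of the interaction -0.95 and that of set 2, without the lucOS β-catenin tumour 1 there, -0.72, and 9, 8 and 20 members had an unadjusted p under 0.05. Without luc β-catenin tumour 3 of set 1 the β-catenin median was -0.58, with 8 such members, and that of the interaction -0.81, with 11. In set 2 the β-catenin median was -0.63 without luc β-catenin tumour 1, with 7 such members. It was -0.27 without luc β-catenin tumour 2 and -0.28 without luc β-catenin tumour 3. Within p53 tumours the median was 0.05 without lucOS p53 tumour 2, 0.10 without luc p53 tumour 2 and 0.35 without lucOS p53 tumour 1. Top2a averaged 16831 ± 3371 in lucOS p53 tumours, against 13021 ± 538 in luc p53 tumours (SD, n = 3 each), a difference of 0.35 ± 0.34 (SE). In set 2, Mki67 averaged 12238 ± 6710 in lucOS β-catenin tumours, against 10671 ± 1617 in luc β-catenin tumours (SD, n = 3 each), a difference of 0.04 ± 0.39 (SE). Ccnd1 had the largest interaction among the members named here, -2.84 ± 1.51 (SE) (adjusted p = 1).

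The other genes of the cycle were read from 4 lists of 136 genes. Of these, 24 were called lower for lucOS in set 1, 24 for luc in set 1 and 58 for lucOS in set 2, and none was called higher. Their medians were -1.10, -0.65 and -0.90. These lists were chosen with earlier results known, and the counts are read beside the same backgrounds of 2.59%, 9.16% and 10.9% of all genes.

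Among 7 CDK inhibitors, Cdkn2a stood out. It encodes an inhibitor of CDK4 and CDK6 and, in another reading frame, the ARF protein, which stabilises p53. In set 1, Cdkn2a had 115 and 28.7 in the lucOS β-catenin tumours, against 3341, 239 and 5512 in the lucOS p53 tumours. Among luc tumours it had 22.7, 17.1, 62.7 and 17.6 with β-catenin, against 2057, 1288 and 101 with p53 loss. In set 2, Cdkn2a had 5.82, 19.9 and 182 in lucOS β-catenin and 20.8, 86.3 and 10.2 in luc β-catenin tumours, against 6695, 3478, 2363 and 621 in lucOS p53 tumours. No β-catenin tumour reached a p53 tumour within any of the 3 comparisons, though lucOS β-catenin tumour 1 of set 1 lay above luc p53 tumour 3. The differences were -4.81 ± 1.43 (SE), -4.60 ± 1.20 (SE) and -6.35 ± 1.17 (SE) on the log2 scale (adjusted p = 0.0769, 0.0284 and 0.00962), called for luc and in set 2. The luc call was lost in 5 of 7 repeats with 1 tumour left out (adjusted p up to 0.114), and that in set 2 held in 7 of 7. In the tumours named JAX alone, where 1 p53 tumour cannot show a spread, the difference was -4.39.

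Cdkn1a, for p21, the CDK inhibitor that p53 induces, did not differ beyond its spread. In set 1, Cdkn1a had 4905 and 7847 in the lucOS β-catenin tumours, against 2164, 6459 and 2716 in the lucOS p53 tumours. Among luc tumours, Cdkn1a had 4784, 3571, 4700.3 and 2256 with β-catenin, against 3400.1, 2618 and 2033 with p53 loss. In set 2, Cdkn1a had 861, 3877 and 2331 in lucOS β-catenin and 1171, 5758 and 2977 in luc β-catenin tumours, against 1410, 1561, 2384 and 2413 in lucOS p53 tumours. The groups overlapped in all 3 comparisons, and the differences were 0.88, 0.48 and 0.07 (adjusted p = 0.275, 0.412 and 0.945). Cdkn1b, for p27, was lower in set 2, with 1430 ± 182 in lucOS β-catenin tumours (SD, n = 3), against 2682 ± 201 in lucOS p53 tumours (SD, n = 4; -0.91, adjusted p = 0.00635).

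**Figure D4:**
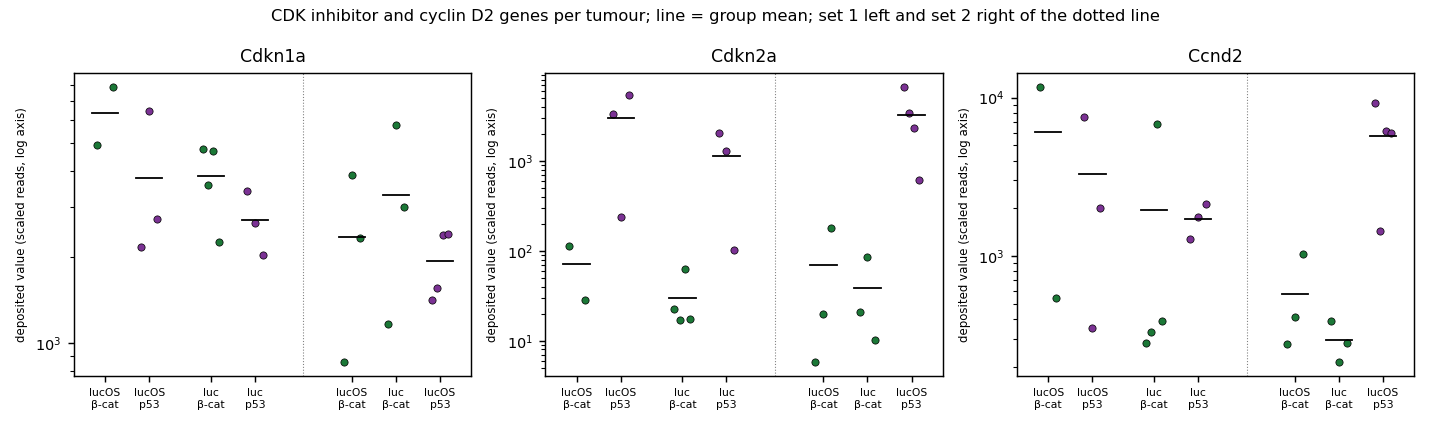
Deposited values (log axis) of Cdkn1a, Cdkn2a and Ccnd2 in every tumour, with β-catenin tumours in green, p53 tumours in purple and the group mean as a line; set 1 stands left and set 2 right of the dotted line. Cdkn2a lies lower in the β-catenin than in the p53 tumours within each comparison, while Cdkn1a overlaps.

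Among 17 other G1 regulators, 2, 5 and 7 were called lower. Ccnd2, for cyclin D2, was called in set 2 only. In set 1, Ccnd2 had 11657 and 544 in the lucOS β-catenin tumours, against 7491, 349 and 2016 in the lucOS p53 tumours. Among luc tumours, Ccnd2 had 282, 330.3, 6842 and 387 with β-catenin, against 1281, 1753 and 2119 with p53 loss. In set 2, Ccnd2 had 279, 413 and 1029 in lucOS β-catenin and 389, 214 and 283 in luc β-catenin tumours, against 9250.4, 1439, 6185 and 5934 in lucOS p53 tumours. In set 1 high and low tumours occurred with both drivers, and in set 2 all lucOS β-catenin tumours lay below all p53 tumours. Its differences were 0.53, -1.25 and -3.25 (adjusted p = 0.875, 0.545 and 0.0111). Skp2, the ubiquitin ligase subunit that removes p27, was called lower in all 3, at -1.79, -1.22 and -1.58 (adjusted p = 0.035, 0.0311 and 0.0159). Others called were Cks1b, a partner of Skp2 (-1.71 for lucOS in set 1), Tfdp1, the dimer partner of E2F factors (-1.33 for luc), E2f5, Cdk4 (-1.33 and -1.03 for luc) and the repressor E2f7 (-1.75 in set 2).

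Of 44 other replication genes, 12, 8 and 23 were called lower. For lucOS in set 1 the largest were Cdc7, the kinase that fires origins (-1.78), Mcm8 (-1.69), Wdhd1 (-1.67) and the checkpoint kinase gene Chek1 (-1.60). Among luc tumours they were Cdc7 (-1.28), Orc6, of the origin recognition complex (-1.22), Pold2, of DNA polymerase δ (-1.21), and Rpa3, which coats single-stranded DNA (-1.18). In set 2 they were Chek1 (-1.42), Pole2 (-1.41), Uhrf1 (-1.41) and Clspn (-1.40).

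Of 68 other mitosis genes, 10, 10 and 26 were called lower. Kif15, a spindle motor, and Espl1, for separase, which cuts the cohesin rings at anaphase, were among the largest in all 3. Kif15 differed by -2.41, -1.77 and -1.98 (adjusted p = 0.0162, 0.00918 and 0.0027) and Espl1 by -2.59, -1.35 and -1.78 (adjusted p = 0.0162, 0.0328 and 0.0116). Lmnb1, for lamin B1, was at -1.79 and -1.54 in set 1, Casc5, of the kinetochore, at -1.81 for lucOS and Cenph, of the inner kinetochore, at -1.33 for luc tumours. In set 2, Cdca5, for sororin, and Sgol1, for shugoshin, were at -1.77 and -1.64.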

How the data were processed

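Per the labels' protocols, total RNA of the 22 tumours went into TruSeq libraries, with no statement on strand, so reads of overlapping and antisense genes cannot be separated. The authors deposited signal values per gene, which are whole reads divided by 1 factor per tumour (100% of values, within 0.01 reads). TopHat2, featureCounts, DESeq2 and mm10 stand in the submitters' processing notes, without versions. Set 1 lists transcripts, and each gene was represented by its transcript of highest mean (24063 genes, 4914 of them with more than 1 transcript); set 2 held 24019 genes.

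Genes that reached 10 in 2 or more tumours of set 1, or in 3 or more of set 2, were tested on log2(value + 1) with limma 3.58.1 (trend option) in R 4.3.3, all groups of a set in 1 fit, two-sided, with Benjamini-Hochberg adjustment over all tested genes and a threshold of 0.05. Adjusted p-values come from limma except where edgeR or DESeq2 is named. Means, SDs and ranges are of deposited values. A run of the test on simulated counts gave every gene the same relative spread and used large changes. It cannot tell how calls hold for genes that vary together between tumours, as here. Alternatives were TMM factors, median centring, pseudocounts of 0.5 and 10, no filter or a minimum of 50, only the groups compared, edgeR 4.0.16 and DESeq2 1.42.0 on the recovered reads, summed transcripts, tumours named JAX only, and each tumour left out. The same replicate numbers are accession order and pair nothing.

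The members, the other gene lists and the markers were chosen with earlier results of these data known. Values in every tumour are given for 10 members fixed by name (Mki67, Top2a, Ccnd1, Ccne1, Cdk1, Mcm2, Pcna, E2f1, Foxm1 and Rrm2), for up to 10 members called per driver comparison with the largest differences, and for Cdkn1a, Cdkn2a and Ccnd2. Of each other list, up to 4 called genes per comparison with the largest differences are named. Values of E2f8, Mybl2 and of members given by their difference alone were added after they were seen. Promoter sequences are RefSeq's (GRCm38.p6).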

Additional observations from a re-analysis of the deposited data

Results flagged for a closer look

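Among the 92 groups of 4 tumours (46 genes in the luc β-catenin tumours of set 1 and the lucOS p53 tumours of set 2), 4 held a tumour far from the other 3, where chance flags about 1 in 20 groups (5%). All 4 were in luc β-catenin tumours. Tumour 3 was the lowest for E2f1 (437.72, nearest 687.62), for Cdk1 (1769.7, nearest 3262.8) and for Mad2l1, a spindle checkpoint gene (791.29, nearest 1633.1). Tumour 1 was the highest for Mybl2 (6184.8, nearest 669.14).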

How the results depend on the processing

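No paired analysis was possible because the tumours carry no number that pairs them across groups. The count of cell cycle genes called lower for lucOS in set 1 (6) was 2 with TMM factors, 2 with median centring, 2 with no filter, 0 with only the groups compared, 1 with edgeR and 13 with DESeq2, and ranged from 0 to 3 with 1 tumour left out. For luc in set 1 (3) it was 1 with TMM factors, 1 with median centring and 1 each with edgeR and DESeq2, which also called Ccnd1 higher, and the calls ranged from 0 to 5. For the average over set 1 (29) it was 17 with TMM factors and 16 with edgeR, and ranged from 10 to 30. For lucOS in set 2 (18) it was 11 with TMM factors and 10 with edgeR, and ranged from 6 to 29. In the tumours named JAX only, 1 p53 tumour is left and is assumed to vary like the others, so no count is given. Over all genes, those called lower for lucOS in set 1 moved as well. They were 417 as tested, 7 with only the groups compared, 125 with edgeR and 985 with DESeq2. The antigen counts of cell cycle genes stayed at 0 in every setting run. Of 27 called values, 22 remained called with DESeq2, 14 with TMM factors, 12 with edgeR and 27 with a minimum of 50 or a pseudocount of 0.5, and none changed sign. Those that changed sign were not called: Ccnd1 for lucOS in set 1 was 0.008045 with TMM factors and between -0.6455 and 0.7965 with 1 tumour left out. Ccne1 for lucOS in set 2 was 0.06284 with TMM factors, 0.02293 with median centring, 0.4234 with edgeR, 0.4291 with DESeq2 and 0.1326 in the tumours named JAX only, and between -0.793 and 0.676 with 1 tumour left out. The cause was not tested.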

Other observations

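Cyclin D1 and cyclin D2, which share their CDK partners, were high in different tumours. Among luc β-catenin tumours of set 1, Ccnd1 was 19055 and 10124 in tumours 1 and 4, where Ccnd2 was 282 and 387, and Ccnd2 was 6842 in tumour 3, where Ccnd1 was 1019.5. LucOS β-catenin tumour 1 of set 1 had 11657 of Ccnd2 and 1001 of Ccnd1. In set 2, Ccnd1 ranged from 732 to 6150 and Ccnd2 from 279 to 1029 in lucOS β-catenin tumours, while Ccnd1 ranged from 547 to 934 and Ccnd2 from 1439 to 9250 in lucOS p53 tumours. LucOS p53 tumour 3 of set 1 had 5192 of Ccnd1 and 2016 of Ccnd2. These are values only, and no relation between the 2 genes was tested.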
